A study of Mus musculus with 12 samples.

Results

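The 9 genes described here mark B cells and plasma cells or encode the cytokines that keep these cells alive. They were chosen by name, with earlier results of these data known, and they are 9 of 22195 genes whose reads were summed over transcripts. Ms4a1, Cd79a and Cd79b are B cell surface genes, Jchain, Mzb1, Derl3 and Tnfrsf17 are plasma cell genes, and Tnfsf13 and Tnfsf13b are the cytokines. Bulk RNA was sequenced from melanoma allografts grown under the skin of immunocompetent C57BL/6J mice from YUMM 2.1, a mouse melanoma cell line. Tumours of 20 to 50 mm3 began treatment with anti-B7H3 + anti-PD1 (the combination), with anti-B7H3, with anti-PD1, or with isotype control antibody. B7-H3 and PD1 are immune checkpoint proteins, and an isotype control antibody has no target in the tumour. Each of the 4 groups has 3 libraries, and the study asked which immune cells the tumours held in each group. The labels do not say whether the libraries of a group came from separate mice, so p-values measure the spread between these libraries. Over pairs of libraries within a group, the median chi-square of a gene's reads ran from 0.548 to 4.57. Counting error alone gives 0.455, so in the closest pair libraries differed by little more than counting error. Small p-values and libraries that lie close together may therefore not reflect the spread between mice. All groups share the same cell line and the same host strain, so every comparison is within 1 tumour model.

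A B cell carries its antigen receptor as a membrane antibody, and the CD79a and CD79b chains pass the signal of that receptor into the cell. CD20, encoded by Ms4a1, sits beside it on the surface of B cells and is lost when a B cell becomes an antibody-secreting plasma cell. Plasma cells make antibody in a large endoplasmic reticulum: the joining chain (Jchain) links IgM and IgA units into polymers, MZB1 is a chaperone of antibody folding, and DERL3 takes part in the disposal of misfolded proteins. BAFF (Tnfsf13b) and APRIL (Tnfsf13), made mostly by myeloid and stromal cells, keep B cells and plasma cells alive, and APRIL acts on plasma cells through BCMA, the receptor encoded by Tnfrsf17. Mzb1 is also expressed in plasmacytoid dendritic cells.

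The libraries differed in more than their treatment. Library totals ran from 4409772 to 5014931 reads in combination, 3593110 to 3937727 in anti-B7H3, 8099713 to 10527704 in anti-PD1 and 15585622 to 21298142 in isotype control tumours. A set of 10 satellite-like genes, which each took at least 1% of reads in isotype control libraries, held on average 31.02%, 0.143%, 70.9% and 91.2% of reads in the same order of groups. Background was read from 1189 olfactory receptor (Olfr) genes, taken here as mostly unexpressed in these tumours, which was not tested. They had on average 0.654 reads per kb of coding length in combination, 0.0564 in anti-B7H3, 5.25 in anti-PD1 and 6.93 in isotype control libraries. A gene's expected background is this value times its coding length. Where background was subtracted before a test, counts that fell under 0 were set to 0. Of 8 melanocyte and melanoma genes, Sox10, S100b, Mitf and Tyr were above background in all 4 groups. The pigment genes Tyrp1 and Dct had 2 and 4 reads in combination, 0 and 0 in anti-B7H3, 21 and 18 in anti-PD1 and 18 and 27 in isotype control tumours, and no group had an interval above the background for either. The parts of satellite reads and background in the comparisons below were not tested beyond the alternatives given.

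On GRCm38, Ms4a1 lies at chr19:11249675-11266241, Cd79a at chr7:24897381-24902197, Cd79b at chr11:106311341-106314762 and Jchain at chr5:88519809-88527891. Derl3 lies at chr10:75893413-75895941, Tnfrsf17 at chr16:11313812-11320074, Tnfsf13 at chr11:69682846-69685784 and Tnfsf13b at chr8:10006467-10039072. Ms4a1, Cd79b, Jchain and Tnfsf13 are on the minus strand and the other 4 of these 8 on the plus strand. For Derl3 and Tnfsf13b, the files divide the estimated reads between annotated transcripts differently in the groups, which was not tested. The bases that tell their transcripts apart are therefore shown first. Each is the coding strand of the annotated coding sequence, 5′ to 3′. In the Derl3 pair the capitals mark the 3 bases (chr10:75893619-75893621, plus strand) that Derl3-201 holds at the start of an exon and Derl3-202 lacks.
Derl3-201: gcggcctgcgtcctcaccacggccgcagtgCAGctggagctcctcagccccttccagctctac
Derl3-202: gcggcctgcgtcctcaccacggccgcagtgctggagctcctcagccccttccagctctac
In the Tnfsf13b pair the capitals mark the first 31 bases after the shared stretch. In Tnfsf13b-203, a protein-coding transcript, these are the start of the next exon used (chr8:10031311-10031341). In Tnfsf13b-205, annotated as a target of nonsense-mediated decay, they run on into what is intron in Tnfsf13b-203 (chr8:10021431-10021461) and end its coding sequence.
Tnfsf13b-203: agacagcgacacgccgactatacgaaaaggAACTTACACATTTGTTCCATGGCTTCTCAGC
Tnfsf13b-205: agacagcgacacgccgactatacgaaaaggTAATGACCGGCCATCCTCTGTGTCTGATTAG

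Jchain stood apart from the other 8 genes in anti-B7H3 tumours. Its level there, as reads beyond background per kb of coding length per 1000000 TMM-scaled reads, was 221 ± 5.24 (SD, n = 3, as for all levels). Mzb1 followed at 13.3 ± 1.70, Tnfsf13 at 7.11 ± 1.34, Tnfsf13b at 3.28 ± 0.757 and Cd79b at 2.64 ± 0.572. Derl3 at 2.06 ± 0.537, Cd79a at 1.97 ± 0.376, Ms4a1 at 1.11 ± 0.453 and Tnfrsf17 at 1.04 ± 0.224 were the lowest. From Tnfsf13b down to Cd79a, and between Ms4a1 and Tnfrsf17, neighbours in this order differed by less than the sum of their SDs. In combination tumours the order was Jchain (36.4 ± 1.53), Tnfsf13 (4.75 ± 0.330), Tnfsf13b (4.04 ± 0.607) and Mzb1 (1.84 ± 0.625), and the other 5 genes lay between 0.162 and 0.574. Summed over a group, reads had a 95% Poisson interval above the expected background for all 9 genes in combination and in anti-B7H3, 6 in anti-PD1 and 2 in isotype control tumours. The 3 genes not above it in anti-PD1 were Cd79b, Mzb1 and Tnfrsf17. The 2 genes above background in isotype control were Derl3 and Tnfsf13b, and 4 were above it when the median Olfr gene set the background. These intervals cover counting error only.

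**Figure D1:**
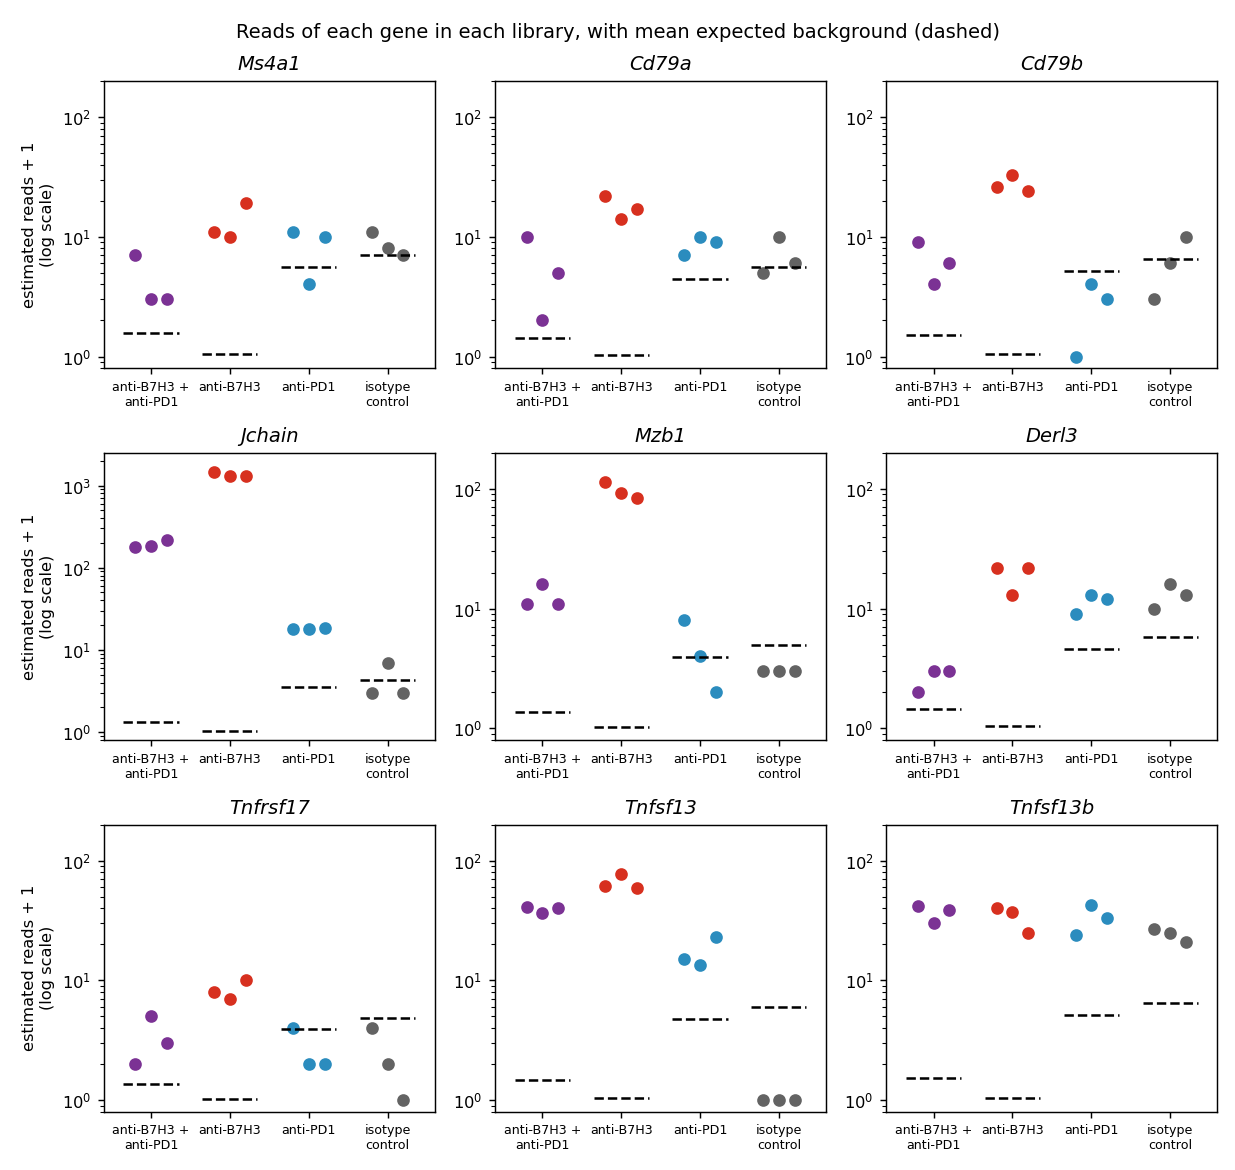
Reads of the 9 genes in each library, as reads + 1 on a log axis, with the 4 groups along the horizontal axis, 1 point per library and dashed lines at the mean expected background. Jchain and Mzb1 are highest in anti-B7H3 tumours, and most genes lie near the dashed line in isotype control.

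**Figure D2:**
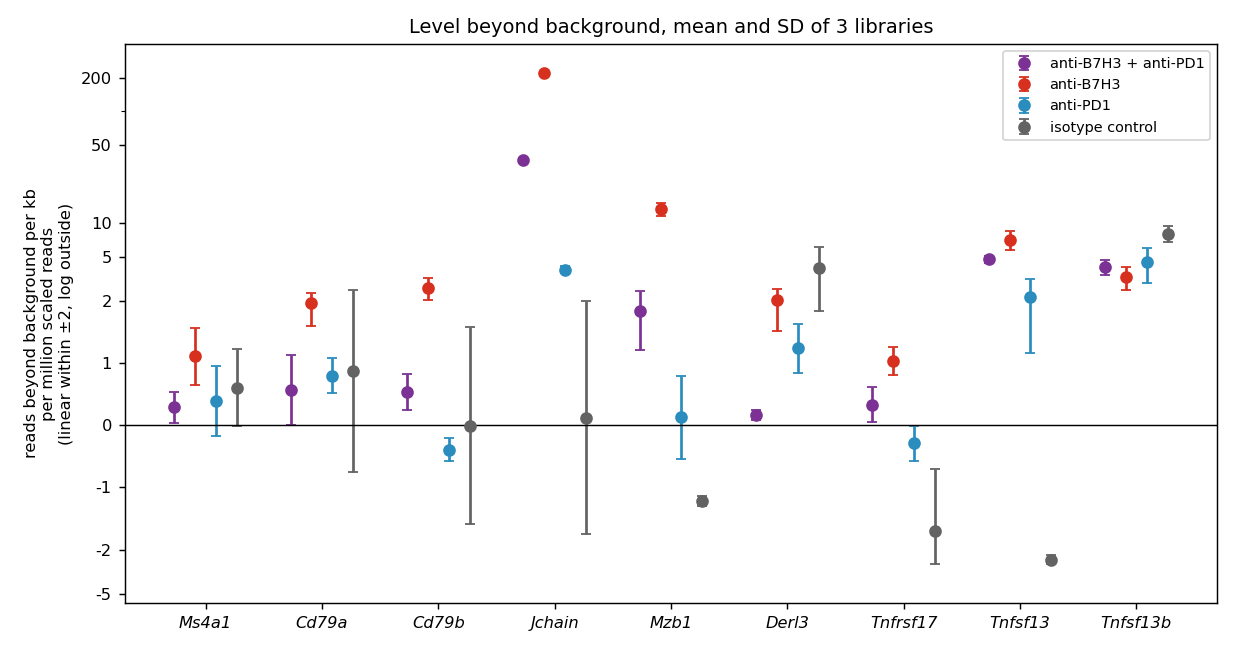
Level beyond background of each gene in each group, in reads per kb per 1000000 scaled reads, as the mean and SD of 3 libraries. Jchain is at 36.4 in combination against 221 in anti-B7H3 tumours, while Tnfsf13b is at 4.04 in combination and 3.28 in anti-B7H3.

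The clearest difference was between combination and anti-B7H3 tumours, where most B cell and plasma cell genes of the 9 were lower with both antibodies. Of the 9 genes, 7 fell and 0 rose, against 19.1% of 13478 tested genes that fell and 19.8% that rose (edgeR's quasi-likelihood F test, Benjamini-Hochberg adjusted p under 0.05, as for every adjusted p below unless another tool is named). All 9 genes passed the filter on low counts. Ms4a1, Cd79a, Cd79b, Derl3 and Tnfrsf17 passed it only through their anti-B7H3 libraries, where their share of all reads was highest. The filter thus favours falls from anti-B7H3 for these genes, and the count of falls and the median are not independent of it. The median log2 fold change of the 9 genes was -1.64, against 0.01 over all genes tested. In bulk tumours, fewer cells of a type and less RNA per cell cannot be told apart.

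Among the B cell surface genes, Ms4a1 had 6, 2 and 2 reads in combination libraries, against 10, 9 and 18 in anti-B7H3 libraries. Ms4a1 fell by 1.64 on the log2 scale (SE 0.530, adjusted p = 0.00964). This call rests on few reads: the adjusted p was 0.132 without anti-B7H3 replicate 3, 0.0647 without combination replicate 2 and 0.0884 without combination replicate 3, and the log2 fold change was -2.35 without combination replicate 1. Cd79a had 9, 1 and 4 reads in combination, against 21, 13 and 16 in anti-B7H3. It fell by 1.60 (SE 0.475, adjusted p = 0.00464), with an adjusted p of 0.0729 without combination replicate 2, of 0.0699 after background was subtracted, and a change of -2.49 without combination replicate 1. Cd79b had 8, 3 and 5 reads in combination, against 25, 32 and 23 in anti-B7H3. It fell by 2.10 (SE 0.436, adjusted p = 5.89e-05). The 2 transcripts of Cd79b shared these reads unevenly between replicates, and Cd79b-201 took from 36.6% to 100% of them in anti-B7H3 libraries.

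Of the 4 plasma cell genes, Jchain, Mzb1 and Derl3 fell and Tnfrsf17 did not pass the test. Jchain had 180, 182 and 218.3 reads in combination, against 1443, 1294 and 1295 in anti-B7H3, and fell by 2.60 (SE 0.0693, adjusted p = 7.65e-44). Mzb1, on the minus strand of chromosome 18, had 10, 15 and 10 reads in combination, against 114, 91 and 83 in anti-B7H3, and fell by 2.82 (SE 0.248, adjusted p = 9.07e-16). For both genes the groups were far apart and libraries within a group lay close together, a closeness that need not hold between mice. Derl3 had 1, 2 and 2 reads in combination, against 21, 12 and 21 in anti-B7H3, and fell by 3.11 (SE 0.541, adjusted p = 2.05e-06). Tnfrsf17 had 1, 4 and 2 reads in combination, against 7, 6 and 9.1 in anti-B7H3. Its log2 fold change of -1.39 (SE 0.641) did not pass the test (adjusted p = 0.0787).

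The cytokines moved less. Tnfsf13 had 40.1, 35.3 and 39.5 reads in combination, against 60.6, 75.7 and 58 in anti-B7H3, and fell by 0.58 (SE 0.207, adjusted p = 0.0211). That call was lost without anti-B7H3 replicate 2 (adjusted p = 0.208), without combination replicate 2 (0.0600) or 3 (0.0883), after background was subtracted (0.107) and in DESeq2's Wald test (adjusted p = 0.0784). Tnfsf13b had 41, 29 and 38 reads in combination, against 39.1, 36 and 24 in anti-B7H3. The libraries overlapped, and its log2 fold change of 0.32 (SE 0.232) did not pass the test (adjusted p = 0.286).

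**Figure D3:**
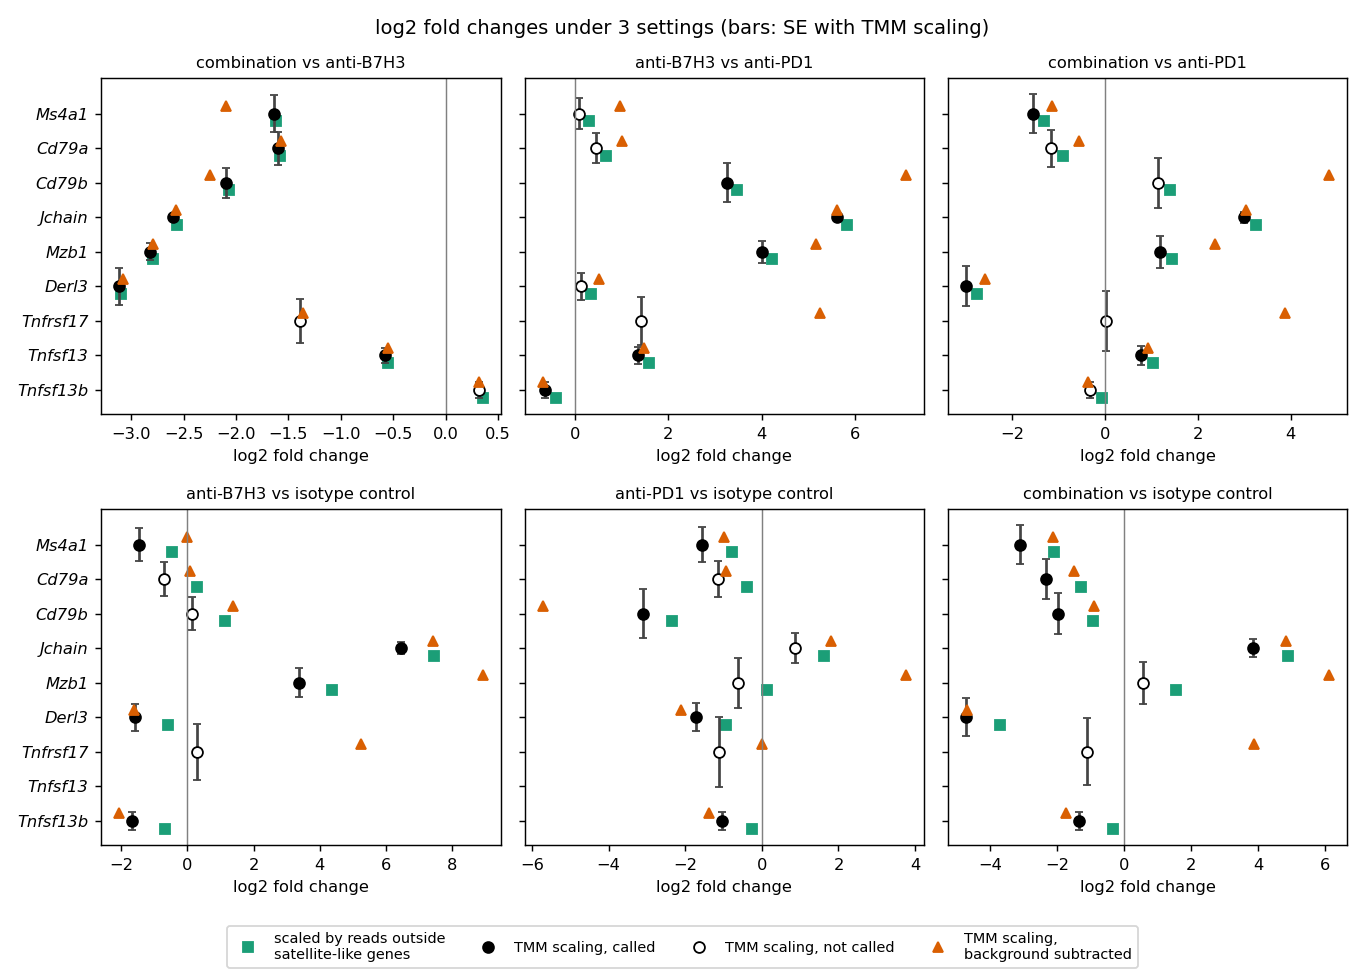
Log2 fold change of each gene in 6 comparisons, with SE bars for the TMM-scaled fit (filled where the adjusted p was under 0.05), beside the values after background was subtracted and after scaling by reads outside satellite-like genes. The combination against anti-B7H3 values keep close to each other under all 3 settings, while several values against isotype control move towards or across 0.

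Anti-B7H3 against anti-PD1 set the 2 single antibodies side by side. Of the 9 genes, 4 were higher and 1 was lower in anti-B7H3 tumours, beside 30.4% and 31.6% of all genes tested. The median of the 9 was 1.35, against -0.01 over all genes. Ms4a1, Cd79a, Cd79b, Derl3 and Tnfrsf17 passed the filter only through their anti-B7H3 libraries, so it favours rises in anti-B7H3 for them. The count of rises and the median are not independent of the filter here either. Cd79b had 25, 32 and 23 reads in anti-B7H3, against 0, 3 and 2 in anti-PD1, and rose by 3.25 (SE 0.561, adjusted p = 6.78e-07). That value was 2.65 without anti-PD1 replicate 1 and 3.92 without anti-PD1 replicate 2, and 7.09 with background subtracted. The anti-PD1 reads, 5 in all, were below the 12.6 expected from background. Jchain had 1443, 1294 and 1295 reads in anti-B7H3, against 17, 17 and 17.6 in anti-PD1, and rose by 5.60 (SE 0.112, adjusted p = 1.71e-52).

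Mzb1 had 114, 91 and 83 reads in anti-B7H3, against 7, 3 and 1 in anti-PD1, and rose by 4.005 (SE 0.322, adjusted p = 4.76e-18), or 4.79 without anti-PD1 replicate 1 and 5.16 with background subtracted. The 11 anti-PD1 reads of Mzb1 compare with 8.92 expected from background. Tnfsf13 had 60.6, 75.7 and 58 reads in anti-B7H3, against 14.2, 12.4 and 21.9 in anti-PD1, and rose by 1.35 (SE 0.247, adjusted p = 2.38e-06). Ms4a1, Cd79a and Derl3 did not pass the test, with adjusted p of 0.881, 0.384 and 0.785. Tnfrsf17 did not pass it either (log2 fold change 1.42, adjusted p = 0.0742), but did after background was subtracted (5.25, adjusted p = 0.00424).

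Between combination and anti-PD1 tumours, 3 of the 9 genes rose and 2 fell, beside 23.1% and 23.4% of all genes tested. The median of the 9 was 0.03, against -0.00 over all genes. Jchain had 180, 182 and 218.3 reads in combination, against 17, 17 and 17.6 in anti-PD1, and rose by 3.01 (SE 0.156, adjusted p = 4.24e-27). The combination lay between both single antibodies for Jchain. Mzb1 rose by 1.19 (SE 0.469, adjusted p = 0.0323), a call lost without anti-PD1 replicate 2 (adjusted p = 0.108), anti-PD1 replicate 3 (0.210) or combination replicate 2 (0.140) and in DESeq2's Wald test (adjusted p = 0.0559) and with an effective-length offset (0.0576). The value was 1.97 without anti-PD1 replicate 1 and 2.37 with background subtracted. Cd79b had 8, 3 and 5 reads in combination, against 0, 3 and 2 in anti-PD1, and its change of 1.16 did not pass the test (adjusted p = 0.194) except with background subtracted (4.83, adjusted p = 0.0232). Tnfsf13 rose by 0.78 (SE 0.267, adjusted p = 0.0131), a call lost without anti-PD1 replicate 1 (adjusted p = 0.0824) or 2 (0.1001). Derl3 fell by 2.98 (SE 0.583, adjusted p = 1.48e-05), with 1, 2 and 2 reads in combination against 8, 12 and 11 in anti-PD1. Ms4a1 fell by 1.55 (adjusted p = 0.0214). It did not pass the test after background was subtracted (adjusted p = 0.386), nor when scaled by reads outside satellite-like genes (0.0514), nor without anti-PD1 replicate 1 (0.113) or 3 (0.0923) or combination replicate 2 (0.0929) or 3 (0.128), and its change was -2.23 without combination replicate 1.

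Against isotype control, 3 of the 9 genes rose and 3 fell in anti-B7H3 tumours, beside 30.8% and 33.3% of all genes tested. The counts were 1 and 4 in anti-PD1, beside 17.5% and 20.9%, and 2 and 5 in combination tumours, beside 27.8% and 29.5%. The medians of the 9 were -1.35 in combination, 0.14 in anti-B7H3 and -1.13 in anti-PD1, against -0.01, -0.04 and -0.04 over all genes. These 3 comparisons share their control libraries. For genes that passed the filter only through anti-B7H3 libraries, it also favours high values in anti-B7H3 against isotype control. Scaling by reads outside satellite-like genes, an alternative chosen after the data were seen, moved the median of all genes to 0.80, 0.71 and 0.59 in the same order, and the share of calls that were higher to 68.5%, 66.0% and 75.8%, beside 48.5%, 48.0% and 45.6% under TMM scaling. The value under that scaling is given beside each of the 9 genes whose call or direction it changes against isotype control.

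Jchain had 1443, 1294 and 1295 reads in anti-B7H3, against 2, 6 and 2 in isotype control, and rose by 6.46 (SE 0.177, adjusted p = 6.40e-44). The 10 isotype control reads match the 9.97 expected from background, and the value was 7.25 without isotype control replicate 2, 7.45 when scaled by reads outside satellite-like genes and 7.42 with background subtracted. In combination tumours Jchain rose by 3.87 (SE 0.266, adjusted p = 5.14e-21), or 4.65 without isotype control replicate 2, 4.88 under that scaling and 4.85 with background subtracted. In anti-PD1 tumours its log2 fold change was 0.86 (SE 0.431, adjusted p = 0.129), and it passed the test without isotype control replicate 2 (1.65, adjusted p = 0.0308) and under that scaling (1.62, adjusted p = 0.00148).

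Mzb1 had 114, 91 and 83 reads in anti-B7H3, against 2, 2 and 2 in isotype control, and rose by 3.38 (SE 0.418, adjusted p = 8.53e-11), or 4.36 when scaled by reads outside satellite-like genes and 8.92 with background subtracted. Mzb1 had 6 reads in isotype control tumours, where background alone would give 11.8, so background subtraction left none in any of these libraries. Its log2 fold change in combination was 0.56 (adjusted p = 0.437) and passed the test at 6.13 after background was subtracted (adjusted p = 0.0380) and at 1.57 under the other scaling (adjusted p = 0.00821). In anti-PD1 tumours it was -0.62 (adjusted p = 0.533), and 0.13 under the other scaling.

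For the B cell surface genes, isotype control reads lay close to background: 23 reads of Ms4a1 against 18.2 expected, 18 of Cd79a against 13.8, and 16 of Cd79b against 16.6. Ms4a1 was called lower in combination (-3.11, adjusted p = 3.31e-06; -3.76 without combination replicate 1), in anti-B7H3 (-1.47, adjusted p = 0.00521) and in anti-PD1 tumours (-1.56, adjusted p = 0.0104; 0.0583 without isotype control replicate 1 and 0.0683 without anti-PD1 replicate 2). After background was subtracted no Ms4a1 value passed the test (-2.12, -0.02 and -0.99, with adjusted p of 0.149, 0.987 and 0.563), and under the other scaling the anti-B7H3 and anti-PD1 values did not (adjusted p = 0.348 and 0.167). Cd79a and Cd79b were called lower in combination, by -2.31 (adjusted p = 0.000433) and -1.96 (adjusted p = 0.00319), and neither passed after background was subtracted (adjusted p = 0.234 and 0.533). Cd79a was -3.14 without combination replicate 1, and Cd79b was -1.35 without isotype control replicate 3 (adjusted p = 0.128) and -0.93 under the other scaling (adjusted p = 0.123). In anti-B7H3 tumours Cd79b had a log2 fold change of 0.14 (adjusted p = 0.808), and 1.14 when scaled by reads outside satellite-like genes (adjusted p = 0.0187). In anti-PD1 tumours Cd79b was -3.11 (adjusted p = 0.000265), with -2.50 without isotype control replicate 3, -3.80 without anti-PD1 replicate 2 and -5.72 with background subtracted. The last value rests on almost no reads. Cd79b lay below background in every anti-PD1 library and in isotype control replicates 1 and 2, so subtraction left few reads in isotype control and none in anti-PD1.

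The files divide the reads of Derl3 between its transcripts differently in the groups, a division that was not tested. Derl3 had 1, 2 and 2 reads in combination, 21, 12 and 21 in anti-B7H3 and 8, 12 and 11 in anti-PD1, against 9, 15 and 12 in isotype control. Derl3-201 held 0, 50, 2.3 and 0 of the summed reads in that order of groups, and Derl3-202 held 5, 4, 28.7 and 36. In anti-B7H3 libraries Derl3-201 had 21, 12 and 17 reads and Derl3-202 had 0, 0 and 4, whereas in isotype control libraries Derl3-201 had 0 in each and Derl3-202 had 9, 15 and 12. The printed pair shows how little separates them: 31 of the 657 windows of 31 bases in Derl3-201 and 28 of 654 in Derl3-202 occur in that transcript alone, so the split rests on reads over 1 junction. For the gene as a whole, the log2 fold change against isotype control was -4.71 (SE 0.548, adjusted p = 1.65e-11) in combination, -1.60 (SE 0.384, adjusted p = 0.000224) in anti-B7H3 and -1.73 (SE 0.411, adjusted p = 0.000459) in anti-PD1 tumours. Scaled by reads outside satellite-like genes these were -3.69, -0.59 (adjusted p = 0.144) and -0.95 (adjusted p = 0.0383). The isotype control reads were above background, at 36 against 14.2 expected, and 4.21%, 0.421% and 1.60% of Olfr genes had at least as many reads per kb as Derl3 in the 3 isotype control libraries.

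**Figure D4:**
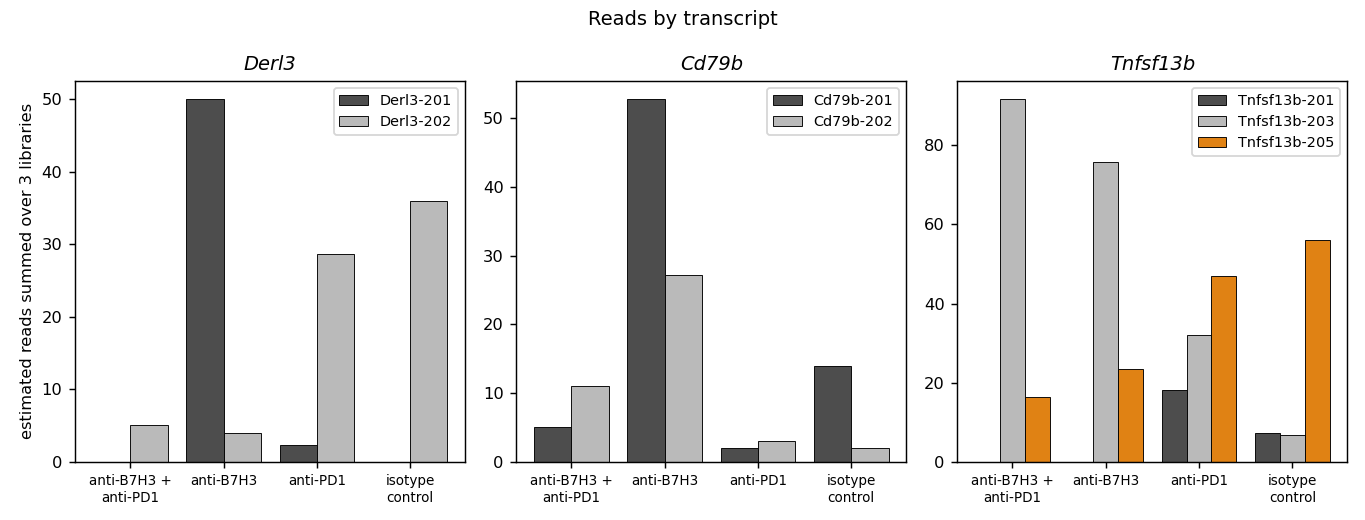
Reads of Derl3, Cd79b and Tnfsf13b by annotated transcript, summed over the 3 libraries of each group. Derl3 reads fall on Derl3-201 in anti-B7H3 (50 reads) and on Derl3-202 in isotype control (36), and Tnfsf13b reads fall mostly on Tnfsf13b-203 in combination (91.7) and on Tnfsf13b-205 in isotype control (56.1).

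The reads of the BAFF gene Tnfsf13b were also divided between transcripts, again with no test of the division. It had 41, 29 and 38 reads in combination, 39.1, 36 and 24 in anti-B7H3 and 23, 42 and 32 in anti-PD1, against 26, 24.1 and 20 in isotype control. Relative to TMM-scaled library size it was lower than isotype control in all 3 treatments, by -1.35 (SE 0.257, adjusted p = 7.07e-06) in combination, -1.67 (SE 0.262, adjusted p = 7.46e-08) in anti-B7H3 and -1.03 (SE 0.259, adjusted p = 0.000852) in anti-PD1. Scaled by reads outside satellite-like genes only the anti-B7H3 value passed (-0.67, adjusted p = 0.0128), and the other 2 were -0.32 (adjusted p = 0.227) and -0.27 (adjusted p = 0.351).

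The protein-coding transcript Tnfsf13b-203 had 34.8, 29 and 27.9 reads in combination, 33, 18.7 and 24 in anti-B7H3 and 23, 0 and 9 in anti-PD1, against 4.6, 2.2 and 0 in isotype control. Tnfsf13b-205, which runs into the intron, had 6.2, 0 and 10.1 in combination, 6.1, 17.3 and 0 in anti-B7H3 and 0, 29.4 and 17.6 in anti-PD1, against 21.4, 22 and 12.8 in isotype control. In isotype control it therefore took 82.2%, 91.0% and 63.8% of the gene's reads. With protein-coding transcripts alone, an alternative chosen after these values were seen, the directions turned to 0.72 (adjusted p = 0.137) in combination, 0.24 (adjusted p = 0.644) in anti-B7H3 and 0.31 (adjusted p = 0.624) in anti-PD1, and none passed the test. With background subtracted as well, Tnfsf13b passed it as higher in combination (3.65, adjusted p = 0.0050) and anti-B7H3 (3.18, adjusted p = 0.0139) but not in anti-PD1 (3.03, adjusted p = 0.0502). The lower anti-B7H3 value against anti-PD1 (-0.63, SE 0.237, adjusted p = 0.0169) was -0.07 with these transcripts (adjusted p = 0.859) and -0.41 when scaled by reads outside satellite-like genes (adjusted p = 0.118), and was lost without anti-B7H3 replicate 3 (adjusted p = 0.132) or anti-PD1 replicate 2 (0.192). Of its windows of 31 bases, 31 of 555 in Tnfsf13b-205 and 29 of 900 in Tnfsf13b-203 occur in that transcript alone.

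The APRIL gene Tnfsf13 had 0 reads in each isotype control library, where background alone would give 15.02 in all. With 3 reads taken as the floor for all of isotype control, it was at least 9.75-fold higher in combination, at least 14.4-fold in anti-B7H3 and at least 5.69-fold in anti-PD1 tumours. Against the expected background the folds were 1.95, 2.87 and 1.14. Tnfsf13 overlaps Tnfsfm13, a read-through of Tnfsf12 and Tnfsf13, and only 126 of the 693 windows of 31 bases in Tnfsf13-201 (18.2%) occur in Tnfsf13 alone, so its reads are uncertain. Tnfsfm13 had 56.9 reads in combination, 99.7 in anti-B7H3 and 24.5 in anti-PD1, against 11.6 in isotype control, and Tnfsf12, which encodes the cytokine TWEAK, had 217.6, 306.1 and 152, against 63.4. With the 3 genes summed as 1 locus, a choice also made after the data were seen, the log2 fold change was 0.40 (adjusted p = 0.0552) in combination, 0.83 (SE 0.172, adjusted p = 2.5e-05) in anti-B7H3 and 0.07 (adjusted p = 0.799) in anti-PD1. Tnfrsf17, the receptor for APRIL, had 1, 4 and 2 reads in combination, 7, 6 and 9.1 in anti-B7H3 and 3, 1 and 1 in anti-PD1, against 3, 1 and 0 in isotype control, and it passed the test in none of these 3 comparisons (adjusted p = 0.337, 0.774 and 0.403).

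The interaction term set the log2 effect of the combination against the 2 single effects added together. Of the 9 genes, 1 was higher and 3 were lower than that sum, beside 19.1% and 17.3% of all genes tested, with a median of -0.45 against 0.04. Jchain lay below that sum (-3.46, SE 0.390, adjusted p = 2.19e-11; -4.25 without isotype control replicate 2 and -4.39 with background subtracted). Mzb1 was at -2.20 (SE 0.762, adjusted p = 0.018), and passed neither without anti-PD1 replicate 1 (-1.38, adjusted p = 0.310) nor after background was subtracted (adjusted p = 0.0854). The Tnfsf13 value rests on 0 isotype control reads and was -0.50 (adjusted p = 0.0698) for the summed locus. Tnfsf13b was at 1.36 (SE 0.347, adjusted p = 0.00117), at 0.17 with protein-coding transcripts (adjusted p = 0.836) and at 0.62 when scaled by reads outside satellite-like genes (adjusted p = 0.114). Derl3 passed the test under that scaling alone and with background subtracted as well (-2.15, adjusted p = 0.00791, and -2.19, adjusted p = 0.0366), but not under TMM scaling (-1.39, adjusted p = 0.122). Under that scaling, alone and with background subtracted, the interaction median over all genes was itself -0.53 and -1.28. In the same order, 24.3% and 4.69% of calls over all genes were higher.

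Other genes of the same pathways were read from lists chosen with earlier results of these data known, and their counts in combination against anti-B7H3 tumours stand beside 19.1% of all tested genes that fell, 19.8% that rose and a median of 0.01. Some list genes with few reads, such as Tnfrsf13b and Igha, passed the filter on low counts only through their anti-B7H3 libraries. The filter thus favours falls from anti-B7H3 in these lists and in those of antibody genes and other cell types below. Their counts of falls and medians are not independent of it, and how many list genes this holds for was not counted. In combination against anti-B7H3 tumours, 5 of 6 tested B cell genes (of 14 listed) fell and 0 rose (median -1.22), among them Pou2af1, a coactivator of antibody genes (27 reads against 177, -2.49, SE 0.288), and Cd22, an inhibitory receptor (144 against 418.6, -1.34, SE 0.159). Of 15 genes of B cell receptor signalling, 14 fell and 0 rose (median -0.81), with the adaptor Dapp1 at -1.42. Of 13 plasma cell genes, 10 fell and 2 rose (median -0.56): the transcription factor Irf4 was at -1.33 and Slamf7 at -1.41, and the general endoplasmic reticulum chaperone Hsp90b1 and the transcription factor Creb3l2 were at 0.20 and 0.21. The level of this list as a whole, defined below, changed little. It ran from 47.63 to 48.15 in combination and from 48.47 to 49.7 in anti-B7H3 libraries. Hsp90b1 had 17080 reads summed over combination and 16980 over anti-B7H3 libraries. Of 11 tested receptors and signalling genes of BAFF and APRIL (of 12 listed), 8 fell and 0 rose (median -0.39), with the receptor Tnfrsf13b (TACI) at -1.39 and Birc3, an inhibitor of apoptosis, at -1.19. Of 6 tested B cell cytokines and chemokines (of 12 listed) 4 fell and 0 rose (median -1.67), with the chemokines Ccl19 at -3.47 (2 reads against 30.8) and Cxcl12 at -2.28 (27 against 152.7).

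Most antibody genes fell. Of 10 tested constant genes (of 12 listed) 8 fell and 1 rose in combination against anti-B7H3 tumours (median -2.74). Igha, the IgA heavy chain, had 5, 2 and 2 reads in combination, against 45, 46 and 59 in anti-B7H3, and fell by 3.79 (SE 0.397, adjusted p = 8.99e-13). Ighe, the IgE heavy chain, had 2 reads against 31 and fell by 3.47. Ighg2b, an IgG heavy chain, had 109, 105 and 150 reads in combination, against 20, 20 and 21 in anti-B7H3, and rose by 2.76 (SE 0.197, adjusted p = 6.92e-20). Its direction was opposite to that of Jchain. Another IgG heavy chain gene, Ighg2c, had 3, 0 and 5 reads in combination, against 2, 1 and 1 in anti-B7H3. How well the counting tells it from Ighg2b was not tested.

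Genes of other cell types moved in the same comparison. Beside the same 19.1% of all genes, 8 of 8 macrophage genes fell (median -1.04), with Cd68 at -1.29 and Adgre1 at -1.12, as did 5 of 7 T cell genes (median -1.09), with Cd4 at -1.33 and Cd3e at -1.31. Of 8 listed neutrophil genes 4 were tested and all 4 fell (median -1.25), with Retnlg at -1.54 and Csf3r at -1.44. Of 9 listed genes of plasmacytoid dendritic cells 6 were tested and 2 fell (median -0.27), with Lag3 at -0.70 and Il3ra at -0.44, a share nearer to that of all genes. Of 6 listed genes of lymph node stroma and follicles 2 were tested and 1 fell, the same Ccl19. The level of a list as a whole was its reads beyond background per kb of summed coding length per 1000000 TMM-scaled reads. For the macrophage list it ran from 71.1 to 71.6 in combination, 144.6 to 146.1 in anti-B7H3, 23.4 to 24.7 in anti-PD1 and 14.5 to 16.3 in isotype control libraries, with 8 of 8 genes above background in every group. For the plasmacytoid dendritic cell list it ran from 7.63 to 7.91, 8.65 to 8.93, 7.51 to 8.37 and 3.54 to 4.999, with 8, 9, 4 and 3 of 9 genes above background. Siglech, a surface lectin that defines these cells in mice, had 4, 6 and 1 reads in combination, against 8, 8 and 6 in anti-B7H3. The part of each cell type in the levels of Mzb1, Tnfsf13 and Tnfsf13b was not tested.

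Ratios within a library do not depend on how libraries are scaled. In reads beyond background, per 1000 of Ighm, the IgM heavy chain, Jchain had 51.6 ± 2.55 reads in combination, 53.5 ± 1.02 in anti-B7H3 and 36.7 ± 5.49 in anti-PD1 tumours (SD, n = 3). The combination and anti-B7H3 libraries differed by -1.87 (exact two-sided permutation test, p = 0.2, where 0.1 is the smallest p that 3 against 3 libraries allow), whereas anti-B7H3 exceeded anti-PD1 by 16.8 (exact permutation p = 0.1) and the combination exceeded it by 14.9 (exact permutation p = 0.1). Per 1000 reads of the light chain Igkc, Jchain had 204 ± 13.5, 191 ± 4.84 and 183 ± 47.7 in the same order of groups, with exact permutation p from 0.2 to 0.8. Per 1000 reads of Jchain, Mzb1 had 59.4 ± 19.0 in combination and 71.1 ± 7.51 in anti-B7H3 (exact permutation p = 0.4). Against Csf1r, the macrophage receptor for colony-stimulating factor, Jchain had 87.6 ± 6.81 reads per 1000 in combination, 283 ± 13.9 in anti-B7H3 and 25.1 ± 1.91 in anti-PD1, and no pair of groups overlapped (exact permutation p = 0.1 each). Tnfsf13 had 17.2 ± 1.45, 13.7 ± 2.67 and 21.3 ± 9.67 per 1000 reads of Csf1r, with exact permutation p from 0.2 to 0.9. Jchain was thus lower relative to Csf1r in every combination library than in any anti-B7H3 library. Adjusted over the 13 comparisons of ratios, the lowest p was 0.26, and 3 against 3 libraries allow none under 0.1, so no comparison could pass 0.05.

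**Figure D5:**
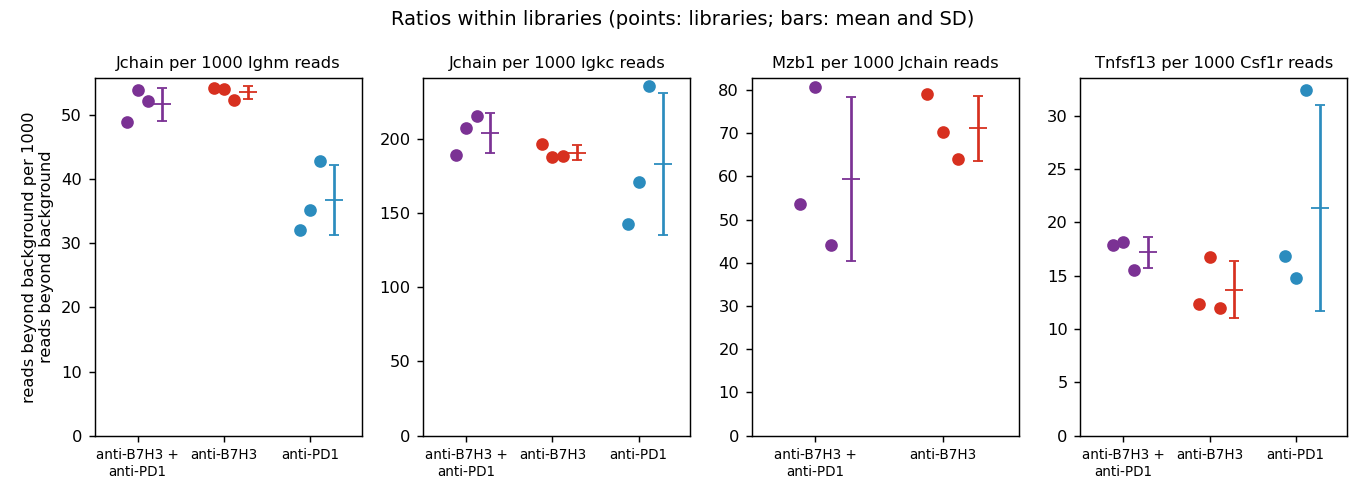
Reads of Jchain per 1000 reads of Ighm and of Igkc, of Mzb1 per 1000 of Jchain and of Tnfsf13 per 1000 of Csf1r in each library, with the group mean. Jchain per Ighm lies close to 50 in combination (51.6) and anti-B7H3 (53.5) and lower in anti-PD1 (36.7), and isotype control is left out because its reads are too few.

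The genes whose profiles over the 12 libraries came nearest to each member were found by the root-mean-square difference of centred log2 CPM, a description with no test. For Jchain they were Igkv14-126 (0.303), Ighm (0.420) and Iglv2 (0.455), all antibody genes, among 12643 compared. For Mzb1 they were the lectin gene Cd209e (0.367), Pdcd1lg2 (0.413), which encodes a ligand of PD1, and Cd209d (0.426), and Mzb1 ranked 147th among the genes nearest to Jchain. For Tnfsf13 they were the guanylate-binding protein gene Gbp6 (0.677) and the major histocompatibility genes H2-D1 (0.757) and H2-Ab1 (0.797). For Cd79b they were Ptpro (0.533), P2rx1 (0.546) and the lymphocyte receptor gene Ly9 (0.547), and for Ms4a1 Galnt18 (0.385), Kif19a (0.397) and Tshz2 (0.400). Cd79a lay nearest to Plin1 (0.360), Stac2 (0.388) and Chst13 (0.400), and Derl3 to Mylk3 (0.281), Kcnd3 (0.390) and Lipk (0.433). Tnfrsf17 lay nearest to Tmem170b (0.311), Mlycd (0.337) and Mcrip2 (0.342), and Tnfsf13b to Hspb1 (0.237), Fuz (0.241) and Zbtb2 (0.245).

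Promoters from 250 bases before to 50 after the start were at hand for 6 of the 9 genes in RefSeq (GRCm38.p6) and were searched on both strands for 6 motifs. The ER stress element, CCAAT and CCACG with 9 bases between them, is bound in the unfolded protein response and was found, on the minus strand, in Derl3 and in 0.119% of 32851 promoters. The Derl3 promoter is printed because it is the only one of the 6 with this element, which the capitals mark. It is chr10:75893148-75893397, plus strand, 250 bases that end just before the start.
Derl3 promoter: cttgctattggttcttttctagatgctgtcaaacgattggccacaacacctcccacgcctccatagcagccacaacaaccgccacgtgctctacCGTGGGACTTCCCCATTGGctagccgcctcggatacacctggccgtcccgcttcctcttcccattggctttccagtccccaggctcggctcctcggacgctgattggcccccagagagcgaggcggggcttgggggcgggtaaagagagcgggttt
The interferon element, GAAA and GAAA with 2 bases between, was in the windows of Tnfrsf17 and Tnfsf13b and in 3.44% of promoters, and in Tnfsf13b its letters GAAAGTGAAA began 16 bases before the start. The octamer ATGCAAAT (1.74% of promoters), the unfolded protein response element TGACGTGG (0.676%), the EBF1 motif of TCCC and GGGA with 2 bases between (0.904%) and the NF-kappa-B motif of GGGA and TTCC with 2 bases between (1.47%) were in none of the 6. A match describes letters and does not show that a factor binds.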

How the data were processed

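Tumour RNA was sequenced as 12 libraries, per the labels' protocols, after depletion of ribosomal RNA with an Illumina TruSeq total RNA kit. The RNA had an integrity number of at least 7.0 and at least 500 ng, per the same protocols. FastQC 0.11.8 and GRCm38 are named in the submitters' processing notes. The program behind the transcript counts and its use of strand are not given in the sources used here, which leaves antisense overlaps uncertain. Each deposited file holds an estimated count of reads per transcript, which the authors did not scale, and TPM values, which were not used. Lengths in the files are coding lengths (87.3% are multiples of 3). Of 58083 transcripts, 57473 matched GENCODE M21 without version, and the other 610 (1.05%) were left out.

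Estimated counts were summed over 22195 genes and rounded. edgeR 4.0.16 in R 4.3.3 fitted all 12 libraries at once (TMM scaling, filterByExpr, robust quasi-likelihood F test, 1 mean per group), and p-values were adjusted over 13478 genes. The SE of a log2 fold change was its size over the square root of F. DESeq2 1.42.0, other scalings and filters, background subtraction and leaving out each library were alternatives. Simulated data were also fitted, with the anti-B7H3 profile in every group apart from genes changed on purpose. They could not show how the fit handles group differences in satellite-like reads or background. The 9 genes and all lists were chosen with earlier results of these data known. Of each list, the rule names up to 2 called genes per direction with the largest change in anti-B7H3 against isotype control and in combination against anti-B7H3, and the 3 nearest profiles of each member. List genes are described for combination against anti-B7H3, where 1 gene of the rule is not reported here, and those of anti-B7H3 against isotype control are not described. Ighg2c, Siglech, Csf1r, Tnfsf12 and Tnfsfm13 were added after their values were seen.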

Additional observations from a re-analysis of the deposited data

Results flagged for a closer look

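The effect of both antibodies differed from the sum of the single effects, by the interaction term of the edgeR fit, for 4 of the 9 genes. Jchain was lower than the sum (adjusted p = 2.19e-11), as was Mzb1 (adjusted p = 0.018, lost without anti-PD1 replicate 1). Tnfsf13 was also lower (adjusted p = 1.4e-06), but has 0 isotype control reads and shares reads with Tnfsfm13. Tnfsf13b was higher (adjusted p = 0.00117), and 0.17 with protein-coding transcripts alone (adjusted p = 0.836).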

How the results depend on the processing

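Over all alternatives, counts of called genes stayed within 1.5 times the reported one in 353 cases and moved further in 45. With background subtracted, 2 genes fell in combination against isotype control and 1 against anti-PD1. With protein-coding transcripts and background subtracted, 1, 2 and 1 fell and 4 rose against isotype control (anti-B7H3, anti-PD1 and combination, and combination for the rise), 4 fell in combination against anti-B7H3, 1 against anti-PD1, 0 in anti-B7H3 against anti-PD1, and 0 were higher in the interaction. Scaled by reads outside satellite-like genes, 1, 2 and 3 fell in anti-B7H3, anti-PD1 and combination and 2 rose in anti-PD1; 1 fell in combination against anti-PD1, 0 in anti-B7H3 against anti-PD1, and 0 were higher in the interaction. With background subtracted too, these were 0, 1, 1 and 2, then 1, 0 and 0, with 4 lower in combination against anti-B7H3. With only the compared groups fitted, 2 fell in anti-PD1 and 1 in combination against isotype control, and 0 in combination against anti-PD1. With the Tnfsf13 locus summed, 0 rose in anti-PD1 and 1 in combination. Well above background, 1 fell in combination against anti-PD1. Without a filter, with protein-coding transcripts or with a 2-fold minimum, 0 fell in anti-B7H3 against anti-PD1, and with protein-coding transcripts 0 were higher in the interaction. The median Olfr gene as background put 4 genes above it in isotype control.

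Some log2 fold changes changed sign. With background subtracted, Cd79a in anti-B7H3 was 0.083, Mzb1 in anti-PD1 3.76 and Tnfrsf17 in combination 3.89 against isotype control; with protein-coding transcripts too, these were 0.052, 3.77 and 3.89. Scaled by reads outside satellite-like genes, Cd79a was 0.29 and Mzb1 0.13, and with background subtracted as well 1.67 and 3.61, with Derl3 in anti-B7H3 0.0055, Cd79a 0.10 in combination and 0.27 in anti-PD1, Cd79b in combination 0.67 and Tnfsf13b in combination against anti-PD1 0.039. The effective-length offset gave -0.018 for Cd79b in anti-B7H3, -0.0063 for Derl3 and -0.012 for Ms4a1 in anti-B7H3 against anti-PD1, and -0.085 for Tnfrsf17 in combination against anti-PD1; effective lengths gave a Cd79b level of 0.00134 in isotype control. With protein-coding transcripts, Tnfsf13b was 0.72, 0.24 and 0.31 in combination, anti-B7H3 and anti-PD1 and 0.41 in combination against anti-PD1; with background subtracted, 3.65, 3.18, 3.03 and 0.62, with 0.16 in anti-B7H3 against anti-PD1 and -2.56 in the interaction. The cause was not tested.

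Leaving out 1 library each gave 1 to 2 higher in anti-PD1 against isotype control (2 without isotype control replicate 2), 4 to 7 lower in combination against anti-B7H3 (4 without combination replicate 2), 1 to 3 higher (1 without anti-PD1 replicate 2) and 1 to 3 lower in combination against anti-PD1 (1 without anti-PD1 replicate 1 or 3 or combination replicate 2 or 3), and 0 to 1 lower in anti-B7H3 against anti-PD1 (0 without anti-B7H3 replicate 3 or anti-PD1 replicate 2). Its log2 ranges crossed 0 for Cd79b in anti-B7H3 against isotype control (-0.37 to 0.75), Tnfrsf17 in combination against anti-PD1 (-0.59 to 0.39), Ms4a1 and Derl3 in anti-B7H3 against anti-PD1 (-0.29 to 0.31 and -0.074 to 0.34), and Ms4a1 and Tnfrsf17 in the interaction (-0.82 to 0.25 and -0.95 to 0.043). With the replicate number as a block, 7 genes fell in combination against anti-B7H3, as without it, and no other call of the 9 genes changed. Same-numbered libraries did not deviate together (r from -0.036 to 0.043 over 18 pairs, 5 of 12 libraries nearest to their own number). Where libraries differ by little more than counting error, this check cannot detect a pairing, so whether the numbers pair the samples is not settled. Few reads limit Ms4a1, Cd79a, Cd79b, Derl3 and Tnfrsf17.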
